A study of Macaca mulatta with 24 samples.

Results

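The comparison described here set the ileum of rhesus macaques killed 4 days after total body irradiation (TBI) with 6.7 Gy against the ileum of unirradiated macaques. It used the 4 arrays titled as day 4 after 6.7 Gy and the 4 arrays titled as controls, which are 8 of the 24 arrays of the series. All animals were young-adult males, and those irradiated received 1 uniform exposure to cobalt-60 gamma rays. The controls were sham-irradiated, carry the label day 4 with a dose of 0, and serve every dose and day of the study. From each animal about 3 cm of ileum was kept as the whole wall, so that epithelium, lamina propria, lymphoid tissue, muscle, vessels and nerves all contributed RNA. Each array measured the RNA of 1 animal with no pooling. The rest of the series holds arrays from 4 animals killed 4 days after 7.4 Gy and from others killed on later days, and they enter below only where the level on day 4 after 6.7 Gy was compared with theirs.

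The lining of the ileum is renewed without pause by dividing cells in the crypts, whose daughters mature into absorptive enterocytes, mucus-making goblet cells and hormone-secreting cells as they move onto the villus. Ionizing radiation breaks DNA, and the transcription factor p53 answers by switching on genes for cell-cycle arrest, DNA repair and apoptosis. Dividing crypt cells, lymphocytes and the precursors of red blood cells in the bone marrow are known as the most sensitive to it.

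The level of a probe is given as the log2 of its processed intensity minus the 75th percentile of its array, so that a level of 0 is the brightness of that percentile. A probe was called altered when limma, fitted over all 24 arrays, gave a Benjamini-Hochberg adjusted p under 0.05 over the 36108 probes tested and the change was at least 2-fold. A change is the mean log2 level of the irradiated arrays minus that of the controls, with its standard error (SE). There were n = 4 arrays in each group unless arrays are said to be left out. A change given for a slide is 1 irradiated array minus 1 control in another position, without an SE. It is irradiated array 3 minus control 1 on slide 1, and irradiated array 4 minus control 2 on slide 2. In whole tissue, a loss of cells of a type and less RNA per cell cannot be told apart.

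The arrays carried batches that bear on every value below. All 4 controls lay in position 1 of slides 1 to 4 and were scanned on the first scan day. Irradiated arrays 1 and 2 also lay in position 1, but on slides 5 and 6, which held no control and were scanned on the second day. Irradiated arrays 3 and 4 shared slides 1 and 2 and the scan day with controls 1 and 2, but lay in position 2. Within the irradiated group, therefore, position and scan day cannot be told apart. Between 83.2% and 88.1% of spots were above background on the controls, against 72.6% on irradiated array 1, 83.9% on array 2, 87.3% on array 3 and 76.8% on array 4. Of the 353 probes called, 294 changed at least 2-fold in the same direction with the position 1 irradiated arrays alone and 306 with the position 2 arrays alone, which these arrays' part in choosing the probes favors. Of the 353, 150 were also called with the position 1 arrays alone, 174 with the position 2 arrays alone and 89 with each, and 136 with position as a covariate.

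Some arrays stood apart from their group. On irradiated array 4, 12.1% of tested probes lay at least 2-fold from the mean of the other 3 irradiated arrays, against 3.00% to 7.32% for those 3. On control 1 the share was 7.56%, against 2.52% to 4.97% for the other controls. Control 1 held little smooth muscle RNA. ACTG2, the actin of enteric smooth muscle, had levels of 5.04, 8.23, 8.22 and 8.01 on controls 1 to 4 and of 7.65, 8.01, 7.56 and 7.08 on irradiated arrays 1 to 4. Irradiated array 4 was low in genes of absorptive cells, irradiated array 2 was high in genes of fibroblasts and enteric neurons, and control 4 was high in genes of B cells. The part of these tissue differences in the results was not tested, and values without control 1 and irradiated array 4 are given beside the results they move most.

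Epithelial genes of the ileum were present on all 8 arrays. FABP6, the bile acid-binding protein of ileal enterocytes, had levels between 8.66 and 8.78 on the controls and between 7.00 and 8.57 on the irradiated arrays. DEFA6, a defensin of Paneth cells, had levels from 7.36 to 8.60 on the controls and from 7.45 to 8.32 after irradiation. The 7 tested genes of colon and stomach had a median change of -0.23, the 6 of jejunum -0.46, and the 10 of pancreas and liver 0.07. None was called in any of the 3 lists by its brightest probe. These medians were -0.016, -0.20 and 0.15 without control 1 and irradiated array 4. The jejunum list held LCT by its brighter probe, while a dimmer LCT probe changed by 4.56 and was called.

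Between the groups, 353 probes, or 0.978% of those tested, were called altered, 215 higher (0.595%) and 138 lower (0.382%) after irradiation. They named 111 genes that rose and 77 that fell, of 14276 gene symbols tested. When each gene was represented by its brightest probe, 0.700% of genes were called higher and 0.455% lower, and the median change over all genes was -0.07. The groups did not overlap on 326 of the 353 called probes, while 11.8% of all tested probes had groups that did not overlap. The median called rise was 1.36 on the log2 scale and the median called fall -1.28. At least 4-fold changes were seen on 34 probes that rose and 16 that fell. A fit with only these 8 arrays called 49 probes, 36 higher and 13 lower, and a fit without control 1 and irradiated array 4 called 141.

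Of the genes with a named symbol, LCN15 and CNDP1 were among those that rose most. LCN15, a lipocalin, had control levels of -6.04, -5.51, -6.21 and -5.12 and levels of 1.23, -1.04, -1.16 and 1.28 after irradiation, a change of 5.80 (SE 0.55, 55.6-fold, limma adjusted p = 5.02e-06, with 3 of 4 controls above background). CNDP1, a dipeptidase that splits carnosine, had control levels of -4.78, -4.63, -4.56 and -4.94 and irradiated levels of 0.33, -1.01, -0.16 and -1.62, which is 17.3-fold higher (limma adjusted p = 1.36e-05). In neither gene did any irradiated array come near the controls. Between arrays that shared a slide the LCN15 change was 4.88 on slide 1 and 6.78 on slide 2. That of CNDP1 was 4.62 and 3.02.

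Several of the other large rises started from levels near background. LCT encodes lactase, the brush-border enzyme that splits milk sugar. Its dimmer probe read -7.43, -7.86, -8.25 and -7.15 on the controls, none of them above background, and -2.38, -2.83, -1.99 and -5.26 after irradiation, at least 11.8-fold higher (limma adjusted p = 0.00245). A brighter LCT probe changed by 1.04 and was not called (limma adjusted p = 0.21), so the 2 probes disagree on the size. MCOLN3, a cation channel of lysosomes, was above background on no control and on 3 of 4 irradiated arrays, and was at least 2.63-fold higher (limma adjusted p = 0.000565). PSD2 was 11.5-fold higher (limma adjusted p = 0.000125), although only 2 of its controls were above background, and its change of 3.53 was 2.91 without control 4.

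There were further large rises. CLIC6, a chloride channel family member, rose 9.77-fold on its most changed probe, with irradiated levels of -1.91, 0.25, -2.13 and -1.79 against -4.93 to -4.46 in the controls, and changed by 1.36 on another probe that was not called. CST6, an inhibitor of cysteine proteases, rose 9.50-fold, but its change was 0.72 on slide 1 against 3.45 on slide 2. The adhesion-type receptor GPR110 rose 6.92-fold (limma adjusted p = 0.0276) with changes of 0.48 on slide 1 and 5.45 on slide 2, and its change of 2.79 was 2.20 without irradiated array 4. H19, an imprinted RNA that codes for no protein, had control levels of -1.22, 0.21, 0.28 and -0.30 and irradiated levels of 2.39, 3.23, 1.1 and 2.67. Its groups did not overlap and it rose 6.08-fold (SE of the log2 change 0.43, limma adjusted p = 0.00296). SERPINB5, a serpin of epithelial cells, was above background on 2 of 4 controls, rose 5.94-fold on 1 probe and changed by 0.69 on its other probe, which was not called.

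**Figure D1:**
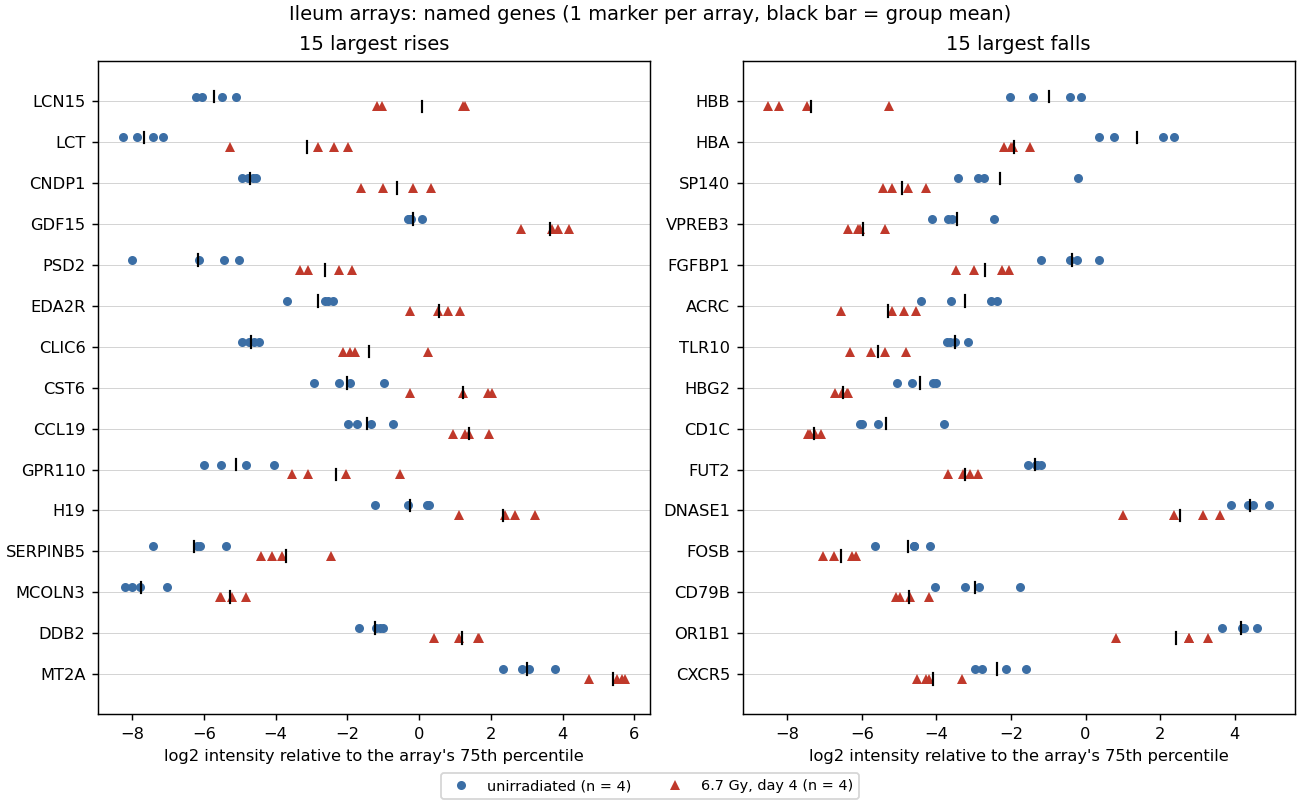
Log2 intensity relative to the 75th percentile of the array (x axis) for the 15 genes with the largest called rises (left) and the 15 with the largest called falls (right), by gene (y axis), leaving out genes with only a provisional LOC or Ensembl symbol. Each marker is 1 array, blue circles for the 4 unirradiated and red triangles for the 4 irradiated animals, and the black bar is the group mean; the groups overlap for none of the genes, which is part of the rule that chose them.

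The plot of the largest changes shows how evenly the 4 animals of each group behaved. In CCL19, HBA and FUT2 the 4 irradiated arrays lay within a narrow band away from the controls, whereas in LCN15, CLIC6, GPR110 and DNASE1 the irradiated arrays were spread out.

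Targets of p53 made up the list with the most called members. Of 26 tested, 8 rose and none fell, where 0.700% of all genes were called higher and 0.455% lower. The median change of the list was 0.50 against -0.07 over all genes. GDF15, a circulating stress cytokine, had control levels of -0.27, -0.30, -0.23 and 0.08 and irradiated levels of 3.87, 3.71, 2.84 and 4.18, a 14.2-fold rise (SE of the log2 change 0.35, limma adjusted p = 3.40e-06). EDA2R, a death receptor of the tumor necrosis factor family, went from levels of -3.69, -2.63, -2.39 and -2.53 to 0.82, 1.14, 0.54 and -0.25, which is 10.4-fold higher (limma adjusted p = 2.19e-06). DDB2 finds ultraviolet-type damage for nucleotide excision repair, and its brightest probe read 0.98, 1.64, 1.67 and 1.80 in the controls and 4.23, 4.21, 3.76 and 3.12 after irradiation, a 4.94-fold rise. PLK2, a kinase of the centrosome cycle, rose 4.02-fold (limma adjusted p = 7.83e-05) and BAX, which permeabilizes mitochondria in apoptosis, 2.07-fold (limma adjusted p = 0.000307). The other 3 called members, named after their values were seen, were the RNA-binding protein gene ZMAT3, with a change of 1.75, RPS27L with 1.46 and the death receptor gene FAS with 1.04.

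The best known targets of p53 moved less. CDKN1A, the p21 inhibitor of the cell cycle, had levels of 4.71, 3.68, 3.94 and 3.48 in the controls and 4.98, 4.64, 4.37 and 4.54 after irradiation. The control 1 level lay within the irradiated range, and the change of 0.68 was not called (limma adjusted p = 0.105). MDM2, the ubiquitin ligase that removes p53, gave discordant probes, since the brighter changed by 0.11 (limma adjusted p = 0.736) while another changed by 1.85 and was called. CCNG1, chosen after its values were seen, rose by 0.69 with a limma adjusted p of 0.0339, under the 2-fold limit. TP53I3, likewise chosen, had a change of -0.998 that was not called (limma adjusted p = 0.0998), so the list was not uniform. Without control 1 and irradiated array 4 the median of the list was 0.58.

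Among genes of S phase and mitosis 1 was called. TYMS makes thymidylate for DNA synthesis. Its levels were 0.79, 1.37, 1.04 and 1.1 in the controls and 2.43, 2.53, 2.36 and 3.08 after irradiation, a 2.87-fold rise (limma adjusted p = 0.000433). It was the only called gene among 19 of S phase, whose median change was 0.47, and none of 22 mitotic genes was called, with a median of 0.38. The replication clamp PCNA changed by 0.47, topoisomerase TOP2A by 0.29 and cyclin CCNB1 by 0.72, none of them called. These medians rested in large part on irradiated array 4, on which the S phase list stood 1.28 above the control mean and the mitotic list 1.19, while array 2 stood at -0.11 and -0.31. Without control 1 and irradiated array 4 the medians were 0.23 and 0.12. Leaving out irradiated array 2 instead gave 0.68 and 0.64, with 3 S phase and 2 mitotic genes called.

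Markers of crypt stem cells had a median change of 0.63, and 9 of 10 were higher, 6 of them with no overlap between groups. Of all tested probes, 4.10% were higher with no overlap and 7.71% lower. EPHB3, a receptor that keeps cells in place along the crypt, had control levels of -2.47, -2.54, -2.18 and -1.64 and irradiated levels of -0.66, -0.76, -0.99 and -0.03, and rose 3.03-fold (limma adjusted p = 0.00153). LGR5, the classical stem cell receptor, read -3.14, -2.64, -2.75 and -2.57 in the controls and -3.08, -2.61, -2.78 and -2.76 after irradiation. Its levels overlapped almost completely, with a change of -0.03 whose sign turned with median or quantile scaling. OLFM4 read above background on 1 control and 2 irradiated arrays, and its change of 2.69 was not called (limma adjusted p = 0.235). That change was 1.03 to 4.19 when 1 array was left out, -0.40 with the irradiated arrays of slide position 1 and 5.78 with those of position 2. On the 4 irradiated arrays the median of the stem cell list lay 0.65, 0.41, 0.50 and 0.86 above the control mean, and without control 1 and irradiated array 4 the median change was 0.51.

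Signals that feed the crypt come from fibroblasts beneath it. Among 23 WNT, R-spondin, BMP and EGF family genes 2 rose, against 0.700% of all genes. BMP7, a bone morphogenetic protein, had control levels of -1.63, -2.26, -2.49 and -2.61 and irradiated levels of 0.12, -0.33, -1.05 and 0.19 (3.95-fold, limma adjusted p = 0.00565). GREM1, a secreted blocker of such proteins, had control levels of -1.29, 1.63, 1.0 and 1.12 and irradiated levels of 2.14, 2.84, 2.35 and 2.97 (3.89-fold, limma adjusted p = 0.0307). Control 1, the array poor in muscle genes, held the lowest GREM1 level, and without it the change of 1.96 was 1.32. Another called GREM1 probe changed by 1.90 (limma adjusted p = 0.0163), and a further one, at -0.23, was not called. The list as a whole had a median change of 0.10.

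**Figure D2:**
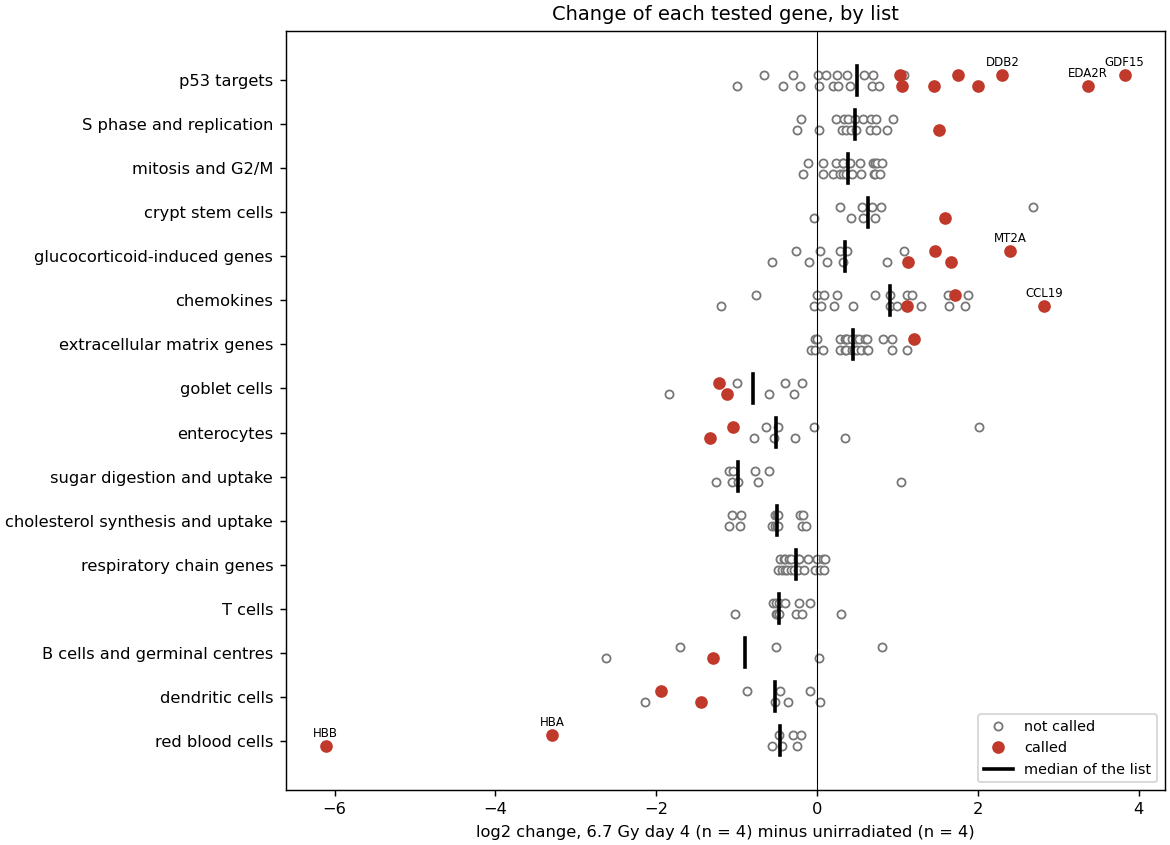
Log2 change of each tested gene, irradiated day 4 minus unirradiated, n = 4 each (x axis), for 16 gene lists (y axis). Filled red points are called genes, open points are not called, and the black bar is the list median; called p53 targets all lie to the right of 0, and of the red blood cell genes only HBB and HBA are far from it.

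The plot of changes by list shows single genes beside whole lists. CCL19 lay beyond the other chemokines, and HBB and HBA far beyond the other red blood cell genes, while the cholesterol and mitotic genes lay close together with no member called.

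Of the genes of mature enterocytes, VIL1 and KRT20 fell. VIL1, the villin that bundles actin in the brush border, had levels of 4.24, 3.89, 3.43 and 3.70 in the controls and 2.73, 2.42, 2.88 and 1.91 after irradiation, 2.50-fold lower (limma adjusted p = 0.00106). KRT20, a keratin of villus cells, had 6.57, 5.91, 5.49 and 5.99 against 5.17, 4.78, 5.11 and 4.71, 2.07-fold lower (limma adjusted p = 0.015). All 4 irradiated arrays lay below all 4 controls in both genes. Within slides the VIL1 change was -1.35 on slide 1 and -1.97 on slide 2, in pairs that differed in array position. These were the 2 called genes among 10 enterocyte markers, against 0.455% of all genes called lower. The median change of the markers was -0.51. Without control 1 and irradiated array 4 that median was 0.06 and 0 of the 10 were called, with changes of -0.99 for VIL1 and -0.77 for KRT20.

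Several further genes fell. FUT2 adds the terminal fucose of mucosal blood group sugars. Its control levels were -1.18, -1.54, -1.31 and -1.34 and its irradiated levels -2.88, -3.28, -3.09 and -3.70, which is 3.71-fold lower (SE of the log2 change 0.32, limma adjusted p = 0.00347). FGFBP1, a carrier that releases fibroblast growth factors from the matrix, fell 5.02-fold, from levels of 0.37, -0.22, -1.20 and -0.42 to -2.25, -3.48, -2.06 and -2.98. DNASE1, a secreted nuclease, had control levels between 3.89 and 4.94 and irradiated levels of 3.16, 2.37, 3.61 and 1.0, with array 4 the lowest. The probe named for the olfactory receptor OR1B1 had a similar profile, with levels of 2.78, 2.78, 3.28 and 0.83 after irradiation against 3.66 to 4.60. MOGAT2, which rebuilds triglycerides from absorbed fat, fell 2.0-fold (limma adjusted p = 0.0384). ACRC fell 4.18-fold (limma adjusted p = 0.039, with 2 of 4 irradiated arrays above background).

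Goblet cell genes were lower in all 8 members tested, and the median change was -0.80. Called lower were 2 of the 8, against 0.455% of all genes. CLCA1, a secreted component of intestinal mucus, had levels of 6.12, 6.26, 6.42 and 6.60 in the controls and 5.64, 4.41, 5.39 and 5.08 after irradiation, 2.33-fold lower (limma adjusted p = 0.0272). AGR2, which folds mucins, fell 2.18-fold (limma adjusted p = 0.0405), with the first irradiated array at -0.46 just below the controls at -0.30 to 0.51. MUC2, the main gel-forming mucin, changed by -0.39 and was not called (limma adjusted p = 0.419). Without control 1 and irradiated array 4 the median of the list was -0.74 and 0 genes were called, with changes of -1.28 for CLCA1 and -1.33 for AGR2. The 2 calls also became 0 without irradiated array 2, without control 3 or without control 4. When 1 array was left out, the change ranged from -1.39 to -0.98 for CLCA1 and from -1.37 to -0.83 for AGR2. Paneth cell and antimicrobial genes, enteroendocrine genes and tuft cell genes had no called member, with median changes of -0.04, 0.02 and -0.36. CHGA, the chromogranin of hormone cells, changed by 0.57.

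**Figure D3:**
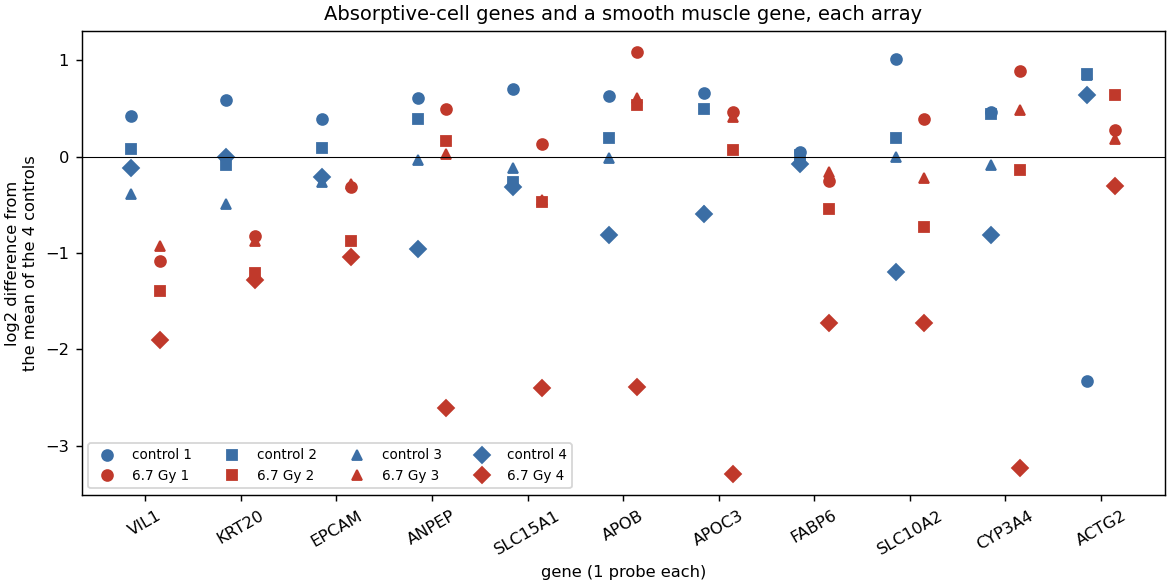
Log2 difference from the mean of the 4 controls (y axis) on each array for 10 epithelial genes and the smooth muscle gene ACTG2 (x axis), 1 probe each. Blue markers are controls 1 to 4 and red markers irradiated arrays 1 to 4. VIL1, KRT20 and FABP6 are lower on all 4 irradiated arrays. ANPEP, SLC15A1, APOB, APOC3 and CYP3A4 are far below the controls on array 4 alone, and ACTG2 is low on control 1 alone.

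Several enzymes and carriers of absorption behaved otherwise than VIL1 and KRT20, as the plot of absorptive-cell genes by array shows. FABP6 in that plot, and MOGAT2, were instead lower on all 4 irradiated arrays than on any control. APOB, the scaffold of lipoproteins, had control levels of 5.59, 5.16, 4.95 and 4.16 and irradiated levels of 6.05, 5.50, 5.58 and 2.57. Arrays 1 to 3 lay above 3 of the 4 controls and array 4 lay far below all of them, and the change of -0.04 was not called (limma adjusted p = 0.97). Array 4 alone was also below the controls for APOC3, with 6.11, 5.72, 6.06 and 2.36 against control levels of 5.06 to 6.31, and for the drug-oxidizing enzyme CYP3A4, with 5.19, 4.17, 4.79 and 1.08 against 3.50 to 4.77. The ileal bile acid carrier SLC10A2 (-0.57), the peptide carrier SLC15A1 (-0.80), the peptidase ANPEP (-0.48) and the sugar-splitting TREH (-0.98) were not called either. Their changes were 0.15, -0.03, 0.43 and 0.09, in that order, with control 1 and irradiated array 4 left out. FABP2 was above background on only 1 control and 2 irradiated arrays. EPCAM, added to the plot after its values were seen, was lower on irradiated arrays 2 and 4.

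No member of the sugar, bile acid, vitamin and mineral or drug-metabolism lists was called. Their median changes were -0.98, -0.56, -0.21 and -0.50, and without control 1 and irradiated array 4 they were -0.29, -0.05, 0.14 and 0.33. On array 4 alone the sugar list stood 2.47 below the control mean and the drug-metabolism list 2.07 below. The peptide list had 1 called gene of 16, CNDP1, and a median change of -0.42 that became 0.05 without those arrays. Fat absorption genes went from -0.08 to 0.60. Which of these arrays represents the irradiated ileum better was not tested.

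**Figure D4:**
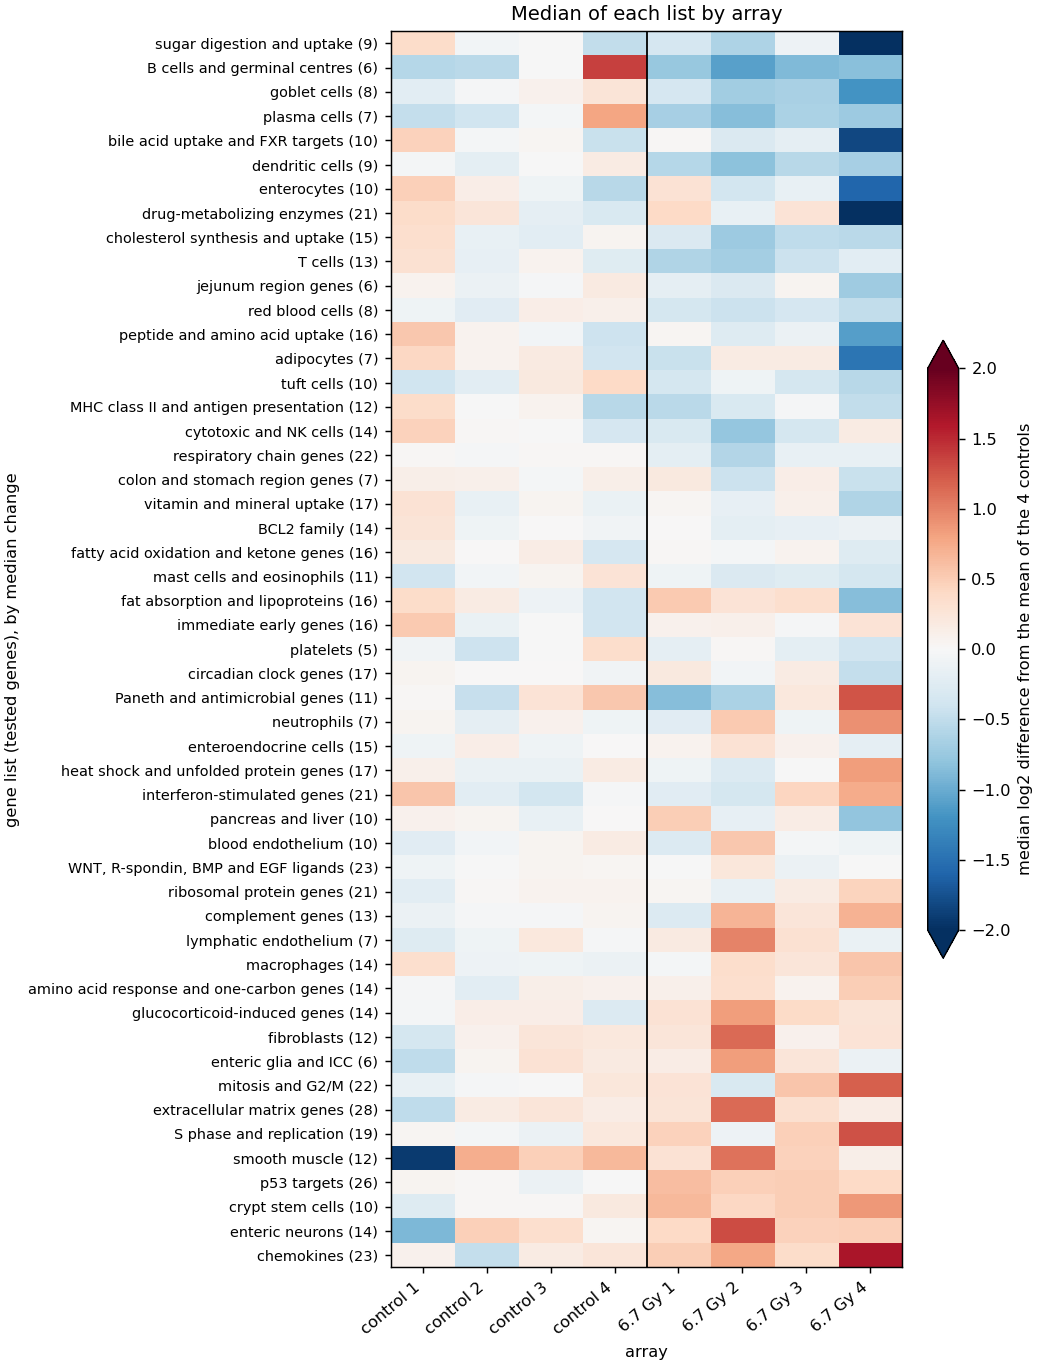
Median log2 difference from the mean of the 4 controls (color, from -2 in blue to 2 in red) for each of 51 gene lists (y axis, with the number of tested genes), on each of the 8 arrays (x axis, unirradiated left of the line). Lists are ordered by their median change; among the dark cells are smooth muscle on control 1, B cells on control 4, and chemokine, sugar, drug-metabolism, bile acid, enterocyte and adipocyte genes on irradiated array 4.

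The map of list medians by array shows in which lists the irradiated arrays had the same sign. Among those that did were the p53, crypt stem cell, goblet cell, B cell, plasma cell, T cell, dendritic cell, red blood cell, chemokine and cholesterol lists. The S phase, mitotic, Paneth cell and interferon lists did not.

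The largest called falls were in globin genes. HBB encodes the beta chain of adult hemoglobin. Its brightest probe read 0.80, 1.38, 2.51 and 2.76 in the controls and -4.44, -3.03, -4.90 and -4.61 after irradiation, a change of -6.11 (SE 0.62, 69.1-fold, limma adjusted p = 1.18e-05). The change was -5.70 within slide 1 and -5.99 within slide 2. An HBA probe for the alpha chain went from levels of 0.37, 0.75, 2.07 and 2.37 to -1.99, -1.50, -2.18 and -1.95 and was 9.83-fold lower (limma adjusted p = 1.22e-05). HBG2, a fetal chain, was 4.16-fold lower on 1 of its probes, above background on 2 of 4 irradiated arrays, with others at -1.25 and -0.48 that were not called.

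Not all globin probes moved. HBA1 read 7.16, 6.80, 7.22 and 7.08 in the controls and 6.64, 6.74, 6.78 and 6.89 after irradiation, with a change of -0.30 (limma adjusted p = 0.135). Globin genes are close copies of one another, and a probe may read more than its own transcript. All 8 tested red blood cell genes were lower, with a median of -0.45. Of these 2 were called lower, against 0.455% of all genes. How much blood each piece of tissue held was not measured.

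VPREB3, TLR10, SP140 and CXCR5 were among the called falls. VPREB3, a partner of the B cell receptor, had control levels of -3.69, -4.12, -3.58 and -2.44 and irradiated levels of -6.37, -6.06, -5.39 and -6.10 (5.74-fold lower, limma adjusted p = 0.0191, with 2 of 4 irradiated arrays above background). TLR10, a Toll-like receptor of B cells, had -3.64, -3.51, -3.73 and -3.16 against -6.31, -5.38, -4.82 and -5.77 (4.17-fold lower, limma adjusted p = 0.00404, with 3 of 4 irradiated arrays above background). The nuclear body protein SP140 was 6.12-fold lower on 1 probe (limma adjusted p = 0.0124, with 3 of 4 irradiated arrays above background) and changed by -0.75 on another that was not called. Its change of -2.61 was -1.91 without control 4, whose level of -0.20 lay far above the other controls. CXCR5, the receptor that draws B cells into follicles, was 3.27-fold lower on its most changed probe (limma adjusted p = 0.0288), and its brightest probe changed by -0.51 without being called.

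CD79B, which signals for the B cell receptor, read -0.18, -0.76, 0.13 and 1.17 in the controls and -1.31, -1.27, -1.15 and -1.07 after irradiation on its brightest probe (change -1.29, limma adjusted p = 0.0252). It was the only called member among 6 tested B cell and germinal center genes, whose median change was -0.90, with 4 of them lower and 2 higher, and it was not called without control 1 and irradiated array 4, with a change of -1.42. The B cell antigen MS4A1, above background on 1 of 4 irradiated arrays, changed by -2.63 and was not called (limma adjusted p = 0.128), although its groups did not overlap. Control 4 carried the most B cell RNA, with its list median 1.37 above the control mean, and without it the list median was -0.67. Plasma cell genes had a median change of -0.64 with no call, JCHAIN at -0.64 and MZB1 at -1.85, which was -1.05 without control 4. The plasma cell median was -0.38 without control 4 and -0.97 without control 1. T cell genes had a median of -0.48, with 12 of 13 lower and none called, and CD3D at -0.49 and CD3E at -0.48.

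Dendritic cell genes were lower in 8 of 9, and 2 of them were called, against 0.455% of all genes called lower. FLT3, the growth factor receptor of their precursors, had levels of -4.27, -4.53, -4.68 and -4.77 in the controls and -6.30, -6.13, -5.47 and -6.15 after irradiation (2.72-fold lower, limma adjusted p = 0.0466, with 2 of 4 irradiated arrays above background). CD1C, which presents lipids, was above background on no irradiated array and was at least 1.87-fold lower (limma adjusted p = 0.0322). The median of the list was -0.52. Neither gene was called without irradiated array 1, 2 or 4 or without control 3 or 4, nor without both control 1 and irradiated array 4. Without both arrays FLT3 changed by -1.30. The value for CD1C was then -2.23, which is nominal because its irradiated levels lay below background. Antigen-presentation genes of MHC class II had a median of -0.35, with MAMU-DRA at -0.46 and none called. These values were -0.065 and -0.036 without control 1 and irradiated array 4. Macrophage genes had a median of 0.27, with CD14 at 0.49 and CSF1R at -0.40, neither of them called. Their 1 called gene was LYVE1, which lymphatic endothelium shares.

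Cytotoxic cell, mast cell, neutrophil and platelet lists had medians of -0.32, -0.16, -0.04 and -0.07 and no called gene. In the same order the medians were -0.36, -0.07, 0.44 and 0.05 without control 4, and -0.10, -0.26, -0.18 and -0.16 without control 1. The neutrophil genes S100A8 and S100A9 were uneven. S100A8 read -7.21, -2.52, -5.88 and 1.23 after irradiation against -6.35 to -5.72 in the controls. Its change of 2.45 rested on arrays 2 and 4 and was not called (limma adjusted p = 0.218).

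Chemokines had the highest median change of the 51 lists, 0.91, and 3 of 23 were called higher, against 0.700% of all genes. CCL19 guides T cells and dendritic cells into lymphoid tissue. It had control levels of -1.74, -1.98, -1.33 and -0.73 and irradiated levels of 0.93, 1.39, 1.27 and 1.94, 7.09-fold higher (SE of the log2 change 0.42, limma adjusted p = 0.00135), and a second probe changed by 2.53. CCL21, made by lymphatic vessels for the same receptor, had 0.22, 0.40, 0.54 and 0.85 against 1.52, 2.24, 1.45 and 1.31 (2.18-fold, limma adjusted p = 0.00567). CCL2, which attracts monocytes, rose 3.29-fold (limma adjusted p = 0.00447), and CCL3 changed by 0.91 without a call. On irradiated array 4 the list median stood 1.63 above the control mean, against 0.36 to 0.77 on the other 3 irradiated arrays. Without that array the median change was 0.49, and that of the chemokines was then no longer the highest of the lists. Higher were enteric neuron genes (0.70), smooth muscle genes (0.60), p53 targets (0.59), matrix genes (0.57) and crypt stem cell genes (0.55). Without control 1 as well the chemokine median was 0.48.

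Several genes of vessels and stroma rose by smaller folds. LYVE1, a hyaluronan receptor of lymphatic vessels, had levels of 0.55, 0.82, 1.15 and 1.11 in the controls and 1.73, 2.32, 1.94 and 1.89 after irradiation (2.09-fold, limma adjusted p = 0.00224). With CCL21 it made 2 called of 7 lymphatic genes, against 0.700% of all genes called higher. The median change of the lymphatic list was 0.26. Leaving out irradiated array 2 made that median 0.067, with 0 called and changes of 0.95 for LYVE1 and 0.92 for CCL21. C7, a late component of complement, had 2.99, 3.41, 3.32 and 3.43 against 4.55, 4.76, 4.54 and 4.33 (2.39-fold, limma adjusted p = 0.00221). MMP2, a collagenase, had 1.44, 2.17, 2.16 and 1.76 against 2.98, 3.68, 3.09 and 2.60 (2.30-fold, limma adjusted p = 0.0134), and the adhesion molecule VCAM1 rose 2.07-fold (limma adjusted p = 0.0395). In all of these the lowest irradiated array lay above the highest control, as was so on 197 of the 215 probes called higher.

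The broader stromal lists had few called members. Matrix genes had a median change of 0.45 with 25 of 28 higher and only MMP2 called, and COL1A1 at 0.36. Their median lay 0.51 below the control mean on control 1 and 1.13 above it on irradiated array 2. Fibroblast genes had a median of 0.35, enteric neuron genes 0.64, enteric glia and pacemaker cell genes 0.36 and smooth muscle genes 0.47. Without control 1 and irradiated array 4 these medians were 0.33 for matrix, 0.26 for fibroblast, 0.44 for enteric neuron, 0.23 for enteric glia and pacemaker cell and -0.02 for smooth muscle genes. The part of the uneven tissue in them was not tested. Blood endothelium, adipocyte and complement lists had medians of 0.10, -0.38 and 0.21, and of 0.04, 0.06 and 0.16 without control 1 and irradiated array 4. Leaving out irradiated array 2 instead gave medians of 0.25 for matrix, 0.18 for fibroblast, 0.48 for enteric neuron, 0.13 for enteric glia and pacemaker cell, 0.25 for smooth muscle, -0.14 for blood endothelium, -0.84 for adipocyte and 0.22 for complement genes.

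Genes known to answer glucocorticoid hormones or metal included the metallothioneins, small proteins that bind zinc and copper. MT2A had control levels of 3.05, 2.88, 3.78 and 2.34 and irradiated levels of 4.74, 5.65, 5.74 and 5.52, a 5.28-fold rise (limma adjusted p = 0.0163). MT1E had 4.40, 5.04, 5.55 and 4.57 against 6.06, 6.24, 6.82 and 6.29, a 2.76-fold rise (limma adjusted p = 0.0466). The groups did not overlap for either gene, and MT1X, chosen after its values were seen, changed by 1.98. Metallothionein transcripts are close copies, and their probes may read each other. PDK4, which turns pyruvate away from oxidation, rose 3.18-fold (limma adjusted p = 0.0237) with a second probe at 2.22, and TXNIP, which restrains glucose uptake, 2.20-fold (limma adjusted p = 0.0228). In all, 4 of 14 glucocorticoid-induced genes rose, against 0.700% of all genes, and the median change was 0.35. That count of 4 fell to 1 without control 1 and to 1 without irradiated array 2, and to 0 without both control 1 and irradiated array 4 or with the position 1 irradiated arrays alone. With both arrays left out the changes were 2.38 for MT2A, 1.32 for MT1E, 1.84 for PDK4 and 1.1 for TXNIP.

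Among genes of the first response to signals, EGR1 rose 2.88-fold (limma adjusted p = 0.00369), MYC rose 2.07-fold (limma adjusted p = 0.0211) and FOSB fell 3.47-fold (limma adjusted p = 0.022, with 2 of 4 irradiated arrays above background). EGR1 changed by only 0.16 within slide 1 and by 2.53 within slide 2, and MYC by 0.42 and 2.36. EGR2 changed by 0.51 and was not called, and the 16 genes had a median of -0.08. That median was 0.35 without control 1 and irradiated array 4, with 1 of the 3 calls left. The changes were then 1.46 for EGR1, 0.85 for MYC and -1.44 for FOSB. Genes of the circadian clock, with ARNTL at -0.82 and NPAS2 at -1.04, had no call and a median of -0.07. PER1, a clock gene that glucocorticoids induce, changed by 0.88 without a call.

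In metabolism, ALDH1L2, the mitochondrial enzyme that oxidizes formyl folate, had levels of 0.25, -0.58, 0.12 and -0.79 in the controls and -1.35, -1.78, -1.38 and -3.30 after irradiation, 3.25-fold lower (limma adjusted p = 0.0186). SHMT1, which loads folate with carbon from serine in the cytosol and was chosen after its values were seen, rose by 1.57 (limma adjusted p = 0.000438). Asparagine synthetase ASNS changed by 0.87 and was not called, and the amino acid and one-carbon list had a median of 0.34, which was 0.18 without control 1 and irradiated array 4. All 15 cholesterol genes were lower, with a median of -0.50, HMGCS1 at -0.95, and none was called. Respiratory chain genes were lower in 17 of 22, with a median of -0.26, NDUFA1 at -0.46 and none called. Fatty acid oxidation and ketone genes had a median of -0.18, with PDK4 as the called member. With both arrays left out the median was 0.05 and PDK4 was not called, with a change of 1.84.

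The interferon list (0.04), the ribosomal protein list (0.13) and the heat shock list (0.04) had no called member. The interferon median was -0.38 with the irradiated arrays of position 1 and 0.58 with those of position 2. In the BCL2 family BAX was called, BCL2L1 changed by 0.43 and the median was -0.20.

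Many of the smaller changes lay close to the threshold, and some calls were lost when 1 of the 8 arrays was left out. Of 68 called genes or probes named, 38 kept their call without any single array, among them LCN15, CNDP1, GDF15, EDA2R, DDB2, PLK2, TYMS, EPHB3, VIL1, FUT2, FGFBP1, HBB, HBA, TLR10, CCL19, CCL2, C7, MMP2 and MT2A. The other 30 lost it in at least 1 case. VPREB3 lost its call without control 4, OR1B1 without control 1, and CCL21 and DARC without irradiated array 2. FAS lost it without irradiated array 1 or control 1, BAX without irradiated array 1 or control 4, MYC without irradiated array 4 or control 2, FOSB without irradiated array 4 or control 1, LYVE1 without irradiated array 2 or control 1, ALDH1L2 without control 1 or 3, and the brightest CD79B probe without control 3 or 4. KRT20 and GREM1 lost it without irradiated array 2 or 4 or control 1, TXNIP without irradiated array 2 or control 1 or 3, and PDK4 without irradiated array 2 or control 1 or 4. The remaining 15, namely ACRC, AGR2, BTLA, CD1C, the more changed CD79B probe, CLCA1, CXCR5, DNASE1, FLT3, GPR110, MOGAT2, MT1E, MT1X, SERPINB5 and VCAM1, lost it in 4 to 7 of the 8 omissions.

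At the same dose, the level on day 4 was compared with that of 4 animals killed on day 7. This comparison shares the irradiated day 4 arrays with the comparison above, the genes named here were picked by their day 4 values, and the day 7 arrays all lay in position 3. Between the days 128 probes, or 0.354%, were called, 88 higher and 40 lower on day 7. With array position as a covariate 12 probes were called, without day 7 array 3 the count was 32, and the methods' t-test with adjustment gave 0. Among the genes named, those that differed were nearer to the controls on day 7. LCN15 was 2.27 lower on day 7 (mean levels 0.08 on day 4, -2.20 on day 7 and -5.72 in controls) and GDF15 was 2.16 lower (3.65, 1.48 and -0.18). FUT2 was 2.11 higher on day 7 (mean levels -3.24, -1.12 and -1.34), and VIL1 1.19 higher (2.49, 3.68 and 3.81). Levels of other genes stayed away from the controls. The HBB brightest probe had mean levels of -4.25 on day 4 and -4.99 on day 7 against 1.86 in the controls, TLR10 -5.57 and -5.70 against -3.51, and MT2A 5.41 and 5.30 against 3.01, with no call between the days for any of the 3.

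At the same day, the 4 arrays after 7.4 Gy differed from the 4 after 6.7 Gy by no called probe (0%) with limma. With an unadjusted p under 0.05 and a 2-fold change, 153 probes passed. The methods' t-test gave 0 with adjustment and 83 without. Mean levels after 7.4 Gy were 4.06 for GDF15, 1.38 for LCN15, -4.01 for the HBB brightest probe and -3.43 for FUT2. That no probe was called does not show that both doses acted alike.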

How the data were processed

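Total RNA of each ileum was labelled with Cy3 and hybridized to 1-color rhesus gene expression arrays, 1 array per animal. The authors scanned the arrays and extracted spot intensities with Feature Extraction 11.0.1.1, and the deposited scanner files hold a background-corrected processed intensity for each of 45220 spots. The authors also deposited a table of raw intensity and a table of normalized values, the latter on a log2 scale after scaling each array to its 75th percentile. The normalized table was recomputed from the deposited raw table to within 0.00034, once the median of each probe over the arrays was also subtracted.

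Control spots were left out, repeated spots were averaged, and log2 processed intensity minus the 75th percentile of each array was used for 43603 probes. Probes entered the test if, in 1 or more of the 7 groups, no array fell below the scanner's background limit (36108 probes). limma 3.58.1 in R 4.3.3 (lmFit, eBayes) was fitted to all 24 arrays with 1 mean per group. A call needed a Benjamini-Hochberg adjusted p under 0.05 and a change of at least 2-fold. Gene symbols came from the deposited normalized table and, for 8317 probes, from a RefSeq gene table matched by accession. Symbols were found for 23795 probes, and a gene was represented in a list by its brightest tested probe. A probe not above background on any array of a group was given as a bound, "at least N-fold", set by the lowest signal among probes above background. Scripts were tested on simulated data.

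The gene lists and comparisons were chosen with earlier results of these data known. Genes were named by a rule: the 15 largest called rises and falls with a symbol that does not begin with LOC or ENSMMU and no overlap between groups, up to 4 called members of each list, and the first genes of each list. Of these last, only some are named in the text. The exceptions are said to be chosen after their values were seen. Alternatives covered scaling, background correction, filters, probe choice, array position, slide, scan day, the arrays fitted, the test and the omission of each array. The number of arrays limits the precision. The limma p-values rest on the spread between animals within the 7 groups, in which slide, position and scan day are mixed. Results for a few genes are not reported here. No sequence of probes or promoters was used here. Tables were handled with pandas 2.3.3 and figures drawn with matplotlib 3.10.9.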

Additional observations from a re-analysis of the deposited data

Results flagged for a closer look

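Each gene and each list named was examined, within the 4 arrays of each group, for 1 array set far apart from the other 3. Of 328 such groups 19 held one, and chance marks about 1 in 20. Irradiated array 4 was low in TREH (level -0.00068), ANPEP (3.83), APOB (2.57), APOC3 (2.36) and MAMU-DRA (3.06), and high in SHMT1 (1.90). Control 1 was low in ACTG2 (5.04), in DARC (-0.67), an atypical chemokine receptor of venules, and in the medians of the smooth muscle list (-1.91) and the matrix list (-0.51), and high in that of the macrophage list (0.34). Irradiated array 2 was high in CLIC6 (0.25) and in the enteric neuron list (1.30), and low in DEFA6 (7.45) and the respiratory chain list (-0.59). Control 4 was high in CCNB1 (1.86) and AGR2 (0.51). Control 2 was high in FABP2 (-5.67) and low in the respiratory chain list (-0.018), whose other control medians were nearly equal.

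The change between day 4 and day 7 after 6.7 Gy passed the limma test and the 2-fold limit in 21 of the genes or probes named. Lower on day 7 were LCN15 (-2.27), GDF15 (-2.16), PSD2 (-1.83), CNDP1 (-1.78), PLK2 (-1.56), EGR1 (-1.37), CH25H (-1.33), CCL2 (-1.28), both DDB2 probes (-1.24 and -1.11), DARC (-1.22), TXNIP (-1.22), ALDH1A2 (-1.21), SHMT1 (-1.16) and CCL21 (-1.02). Higher on day 7 were FUT2 (2.11), OR1B1 (2.05), FGFBP1 (1.73), ALDH1L2 (1.70), CA7 (1.22) and VIL1 (1.19). These differences have day 4 arrays in common with the comparison of irradiated with control ileum, and the genes were picked for their day 4 values.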

How the results depend on the processing

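Of 68 called genes named, none changed sign under any of the 28 alternatives that tested it (53 of the 68 were tested with a filter over all 24 arrays). Of the 68, 68 kept their call with the deposited normalized table, 61 with median scaling, 53 with normexp on spot medians, 51 with scan day as a block, 43 with array position as a covariate, 36 without control 1 and irradiated array 4, and 22 with only the 8 arrays fitted. The count of 353 called probes became 218 with irradiated arrays in position 1 only, 199 with array position as a covariate, 180 with the mean of all probes of a gene (fewer features tested), 216 with normexp, 141 without control 1 and irradiated array 4, 49 with only the 8 arrays, and by the methods' t-test 663 unadjusted and 0 adjusted. Leaving out 1 array gave 222 (without control 1) to 435, and 232 without irradiated array 4. The share called higher was 60.9%, with median scaling 71.4%, with quantile normalization 74.3% and with only the 8 arrays 73.5%, and by the methods' t-test without adjustment 42.8% (284 higher and 379 lower). The count of 128 between day 7 and day 4 became 12 with position as a covariate, 85 with normexp, 66 with scan day and 60 with slide as a block, and by the methods' t-test 447 unadjusted and 0 adjusted. It ranged from 32 (without day 7 array 3) to 187 when 1 array was left out, with 48 without irradiated day 4 array 2 and 48, 52 and 73 without day 7 arrays 1, 2 and 4. The count of 0 between doses became 1 with position as a covariate and 83 by the methods' t-test without adjustment, and ranged from 0 to 2 (without 6.7 Gy array 2). The causes were not tested. Normexp, scan day as a block and the joint omission of 2 arrays were added after seeing the data, and normexp on the mean signal was not run, since the files hold no mean signal.

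With the replicate number as a block, fitted on the arrays of each pair of groups, 0 probes were called between irradiated and control arrays and 0 between day 7 and day 4. Deviations of same-numbered arrays correlated at 0.09, 0.15, -0.05 and 0.23, and 3 of 4 arrays correlated best with their own number. Not all were above 0.1 and no label ties the numbers to a shared litter or day, so the numbers were not treated as pairs.

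Only uncalled genes changed sign. With position 1 arrays only and with position as a covariate, changes became -0.19 for TOP2A, 0.33 for ANPEP, 0.81 for APOB, 0.26 for APOC3, 0.37 for CYP3A4 and -0.40 for OLFM4. With position 2 arrays only they were -0.11 for MDM2, 0.0053 for LGR5, 0.19 for DEFA6 and -0.058 for ACTG2. Without control 1 and irradiated array 4 they were 0.091 for TREH, 0.43 for ANPEP, 0.95 for APOB, 0.53 for APOC3, 0.15 for SLC10A2, 0.56 for CYP3A4 and -0.41 for ACTG2. Median scaling gave 0.015 for APOB, 0.025 for LGR5 and 0.012 for DEFA6, and quantile normalization 0.038, 0.023 and 0.24. Scan day as a block gave 0.084 for LGR5 and 0.042 for DEFA6, slide as a block 0.12 and 0.17, and the mean of all probes 0.0087 for LGR5. Leaving out 1 array moved ANPEP from -0.81 to 0.23, APOB from -0.42 to 0.74, APOC3 from -0.94 to 0.31, CYP3A4 from -0.96 to 0.41, LGR5 from -0.15 to 0.058, DEFA6 from -0.28 to 0.16 and ACTG2 from -0.58 to 0.48.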

Other observations

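Some called genes lay outside the lists and the rule for named genes, and were chosen after their values were seen. CCR9, the receptor that brings lymphocytes to the small intestine, had control levels of -0.93, -1.80, -1.63 and -0.83 and irradiated levels of -3.36, -3.07, -2.38 and -3.08, a change of -1.67 (limma adjusted p = 0.00221). BTLA, an inhibitory receptor of lymphocytes, changed by -1.26 (limma adjusted p = 0.0462), and CA7, a carbonic anhydrase, by -1.55 (limma adjusted p = 0.00845). ALDH1A2, which makes retinoic acid, had levels of -1.52, -0.72, -1.08 and -0.78 in the controls and 0.41, 0.91, 0.67 and 0.66 after irradiation, a change of 1.68 (limma adjusted p = 8.75e-05). CH25H, which makes the B cell attractant precursor 25-hydroxycholesterol, changed by 1.48 (limma adjusted p = 0.000307) and DARC by 1.22 (limma adjusted p = 0.0113). In all of these genes the groups did not overlap, as was so on 326 of the 353 called probes.

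A large change that failed the test was that of CYP1A1, an enzyme induced by aromatic compounds of the diet. Its control levels were 3.71, 3.29, -1.96 and 2.47 and its irradiated levels -4.22, -5.33, -3.05 and -8.24, a change of -7.09 (SE 1.96, limma adjusted p = 0.0563). Control 3 was far below the other controls, yet the groups did not overlap. The change was -8.37 to -6.08 when 1 array was left out and -5.47 without both control 1 and irradiated array 4.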
